A study of Drosophila melanogaster with 2 samples.

Results

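Chromatin immunoprecipitation sequencing (ChIP-seq) of toy-eGFP was examined at 10 named genes of the Drosophila melanogaster phototransduction cascade: ninaE, norpA, trp, trpl, inaD, inaC, ninaC, Arr1, rdgC and rdgB. They were taken by name out of 13968 protein-coding genes annotated on the chromosome arms; the rule uses no measured value, but earlier results of these data were known when they were taken up. The material was 2 biological replicates of whole embryos aged 0 to 24 h from a fly strain labelled toy-GFP, whose insertion gives an eGFP fusion of toy, a transcription factor of the Pax6 family needed for eye development. Chromatin bound by the fusion was recovered through its GFP tag. Both replicates carry the same insertion and form a single group, so no condition was compared, and control libraries were not analysed here. Neither the labels nor the files say which promoter drives the fusion. A gene was credited with every peak whose summit lay inside its annotated span or had its nearest protein-coding transcription start site (TSS) there. Because whole embryos were used, fewer cells with the protein on a site and less protein per cell cannot be told apart.

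In the fly eye, light-activated rhodopsin switches on a G protein, which activates the phospholipase C encoded by norpA, and hydrolysis of the membrane lipid PIP2 then leads to opening of the cation channels trp and trpl. The scaffold inaD holds phospholipase C, the eye protein kinase C inaC and the channel trp together in the light-sensing membrane. Arrestins and the phosphatase rdgC act on rhodopsin to end and reset the response, and the lipid transfer protein rdgB returns phosphatidylinositol to the membrane. In embryos, photoreceptors are limited to the small larval eye, and the adult eye forms later.

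Peaks past the authors' threshold were credited to 3 of the 10 genes in the conservative list of the series: norpA, rdgC and rdgB. The sequence at these sites is printed here as the summit with 100 bp on either side (dm6, sequence from the RefSeq Release 6 assembly, strand of the gene, plus in all 3), because they hold the only thresholded summits of these genes in that list. They lie at chrX:4324896-4325096 for norpA, chr3L:20247634-20247834 for rdgC and chrX:13762483-13762683 for rdgB, and none overlaps an annotated exon. Capitals mark every match on either strand to the motifs listed further on, here the homeodomain core TAATTA, the Trl binding element GAGAG and the core promoter box TATAAA.
norpA: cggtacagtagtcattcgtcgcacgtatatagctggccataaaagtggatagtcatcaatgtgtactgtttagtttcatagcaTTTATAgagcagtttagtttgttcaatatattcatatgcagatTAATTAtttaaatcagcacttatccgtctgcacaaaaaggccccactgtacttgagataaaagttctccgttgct
rdgC: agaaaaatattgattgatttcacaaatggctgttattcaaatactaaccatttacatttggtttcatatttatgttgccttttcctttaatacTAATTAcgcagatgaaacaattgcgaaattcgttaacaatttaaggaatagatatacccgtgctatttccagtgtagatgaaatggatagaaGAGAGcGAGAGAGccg
rdgB: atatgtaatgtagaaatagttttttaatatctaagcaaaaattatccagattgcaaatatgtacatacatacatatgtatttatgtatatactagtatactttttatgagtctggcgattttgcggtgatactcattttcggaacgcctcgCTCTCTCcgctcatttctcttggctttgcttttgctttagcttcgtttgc

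The windows of norpA and rdgC each held 1 match to TAATTA. In norpA it began 26 bp after the summit, and in rdgC it spanned the bases from -7 to -2 relative to the summit. Among all 1402 conservative windows of this size on the chromosome arms, 15.8% held TAATTA. The window of rdgB held none, but had 2 overlapping matches to GAGAG, and that of rdgC had 3, 2 of them overlapping; 23.8% of all windows held GAGAG. The reverse strand of norpA carried TATAAA, from -17 to -12, as 34.3% of windows did on either strand. The paired domain core TCACGC, part of the site of Pax6-type proteins, was found in none of these windows and in 4.42% of all. Nor was there a match to the Otd-type site TAATCC (6.28% of all windows), the core promoter element DRE with the letters TATCGATA (2.21%), the proneural E-box CAGCTG (7.92%), the Zelda site CAGGTAG (0.571%) or the P3 homeodomain dimer (2.92%). The share of G and C was 36.8% in norpA, 32.3% in rdgC and 33.3% in rdgB, beside a mean of 37.2% over all windows. With 3 windows these are descriptions, and no test was made.

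Also printed are the promoters of ninaE, which encodes the major rhodopsin, and of the channel gene trp, neither of which had a thresholded peak in any list. The 200 bp before their annotated starts lie at chr3R:19888207-19888406 and chr3R:29920290-29920489, and are printed on the minus strand, that of both genes, with the same motifs in capitals.
ninaE: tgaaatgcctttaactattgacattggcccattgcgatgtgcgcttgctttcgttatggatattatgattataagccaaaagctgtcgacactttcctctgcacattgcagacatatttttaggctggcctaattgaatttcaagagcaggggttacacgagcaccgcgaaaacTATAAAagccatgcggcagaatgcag
trp: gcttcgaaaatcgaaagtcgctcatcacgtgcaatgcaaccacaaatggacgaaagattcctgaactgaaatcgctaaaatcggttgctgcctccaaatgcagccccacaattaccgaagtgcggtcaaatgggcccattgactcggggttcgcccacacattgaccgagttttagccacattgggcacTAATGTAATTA
The window of ninaE held TATAAA, as did those of trpl and Arr1, 3 of the 10 genes, beside 36.9% of all 13968 upstream windows. The window of trp ended in a P3 dimer, a pair of TAAT cores in opposite orientation, which includes an overlapping TAATTA. The P3 dimer was found upstream of 3 of the 10 genes (trp, trpl and ninaC) and of 2.31% of all genes, and these 3 genes also accounted for the 3 matches to TAATTA (15.4% of all genes). None of the 3 had a thresholded peak, as was so for most genes. Of all protein-coding genes, 8.93% had a peak in the conservative list and 11.6% in the pooled list. A relation between this motif and the peaks was not tested. Near matches were not counted: the windows of ninaE and Arr1 hold TAATTGAATTT, which differs from the ninaC match TAATTGAATTA in its last base. GAGAG was found upstream of 2 of the 10 genes (rdgC and rdgB; 22.1% of all genes) and CAGCTG of 2 (ninaC and rdgC; 11.4%). TCACGC was found upstream of 0 of the 10 genes (3.99% of all genes), as were TAATCC (5.97%), TATCGATA (7.28%) and CAGGTAG (1.15%). The upstream window of ninaC overlaps 2 annotated exons. Upstream windows are placed by the gene start and those printed above by the summit, so the 2 kinds are not like for like.

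norpA (FBgn0262738; X, 4322626 to 4365408, dm6, plus strand), the phospholipase C gene, carried the strongest site of the 10. The signal value of a peak is the authors' own measure of its height, on a scale that neither labels nor files define. It was 192 in replicate 1, 242 in replicate 2 and 426 in the conservative list. The peak (X, 4324886 to 4325089) lay in intron 1, 1387 bp from the nearest TSS of norpA. It ranked 48th of 1404 conservative peaks by signal, 57th of the 925 thresholded peaks of replicate 1 and 38th of the 1098 of replicate 2. The summits of the replicates were 4 bp and 13 bp from that of the series. At 204 bp it was narrower than the usual 340 bp, a width or less that 12.6% of conservative peaks had. Its irreproducible discovery rate (IDR, the authors' measure of how poorly a peak repeats between 2 peak sets) stood at 1e-05, the lowest value these lists hold, in both replicates and in the series. A weaker peak of norpA, also in intron 1 and 561 bp from a TSS, had a signal value of 54.8 in the conservative ranking, 24.0 in replicate 1 and 30.2 in replicate 2, and an IDR of 0.0709, outside the authors' limit of 0.01.

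rdgC (FBgn0265959; 3L, 20248080 to 20265554, plus strand), the gene of the rhodopsin phosphatase, carried the next strongest site. Its signal value was 95.3 in replicate 1, 139 in replicate 2 and 239 in the conservative list. The peak (3L, 20247638 to 20247791) lay before the gene, 346 bp from its TSS, and passed the threshold in both replicates. It ranked 150th in the conservative list, 241st in replicate 1 and 127th in replicate 2. The IDR was 5.69e-05 in the conservative ranking, 0.000104 in replicate 1 and 1e-05 in replicate 2. At 154 bp it was among the narrowest 7.7% of conservative peaks. The peak of replicate 1 was 316 bp wide with its summit shifted by -24 bp from that of the series, and the peak of replicate 2 was 125 bp wide with a shift of -2 bp.

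rdgB (FBgn0003218; X, 13762752 to 13779488, plus strand), the gene of the phosphatidylinositol transfer protein, carried a weaker promoter peak. Its signal value was 33.6 in replicate 1, 38.0 in replicate 2 and 77.6 in the conservative list, where it ranked 1141st of 1404. The peak (X, 13762413 to 13762752) had its summit 169 bp before the TSS. In the conservative ranking its IDR was 0.0078, inside the limit, but the IDR was 0.065 in replicate 1 and 0.0263 in replicate 2, so neither replicate alone had it as a thresholded peak. Of all conservative peaks on the arms, 24.4% likewise overlapped no thresholded peak in either replicate, while 44.2% overlapped one in both, as norpA and rdgC did.

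**Figure D1:**
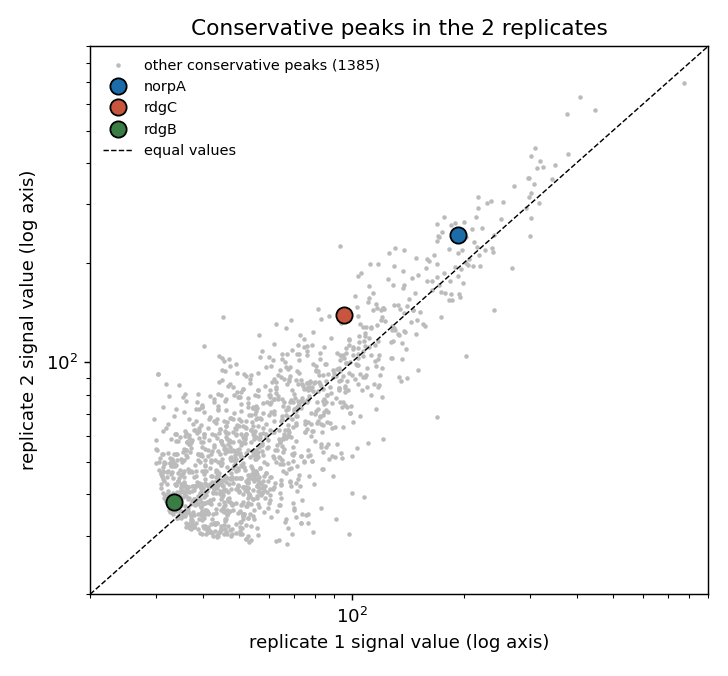
Signal value of each conservative peak in replicate 1 (horizontal, log axis) and replicate 2 (vertical, log axis), taken from the strongest overlapping ranked peak; the dashed line marks equal values. norpA and rdgC lie high in the cloud and rdgB at its low end, and all 3 lie above the line of equal values.

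All 3 sites were somewhat higher in replicate 2, by a log2 ratio of 0.33 for norpA, 0.54 for rdgC and 0.18 for rdgB. Over the 1388 conservative peaks that overlapped a ranked peak of each replicate, this ratio had a median of 0.04, with the 10th and 90th percentiles at -0.52 and 0.64. The 3 values lay inside that range.

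The conservative list credited 3 of the 10 genes with a peak, where 8.93% of all protein-coding genes had one. The pooled list, the other thresholded list of the series, credited 4 (norpA, rdgC, rdgB and inaD), with 11.6% of all genes. Replicate 1 alone credited norpA and rdgC, as did replicate 2 alone, beside 6.09% and 7.12% of all genes. These counts are small and carry no test. Gene length moved with the count: norpA, rdgC and rdgB are the 3 longest of the 10, at 42783, 17475 and 16737 bp. Of the 1246 protein-coding genes at least as long as rdgB, 28.3% had a conservative peak, and of the 12722 shorter ones 7.04% did, a division chosen after the values were seen. The other 7 genes, from 1952 to 11822 bp long, had none. The part of length in the count was not tested.

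**Figure D2:**
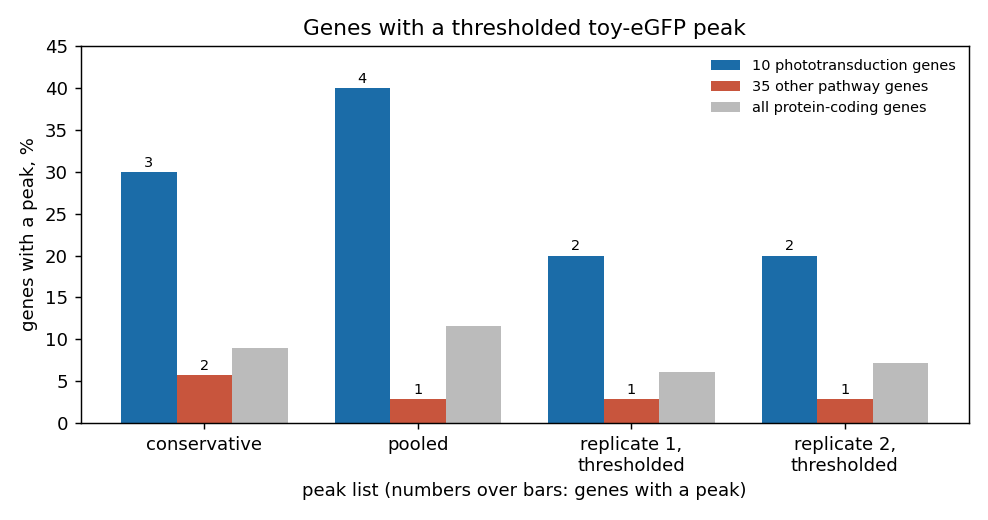
Percentage of genes with at least 1 peak in each thresholded list, for the 10 phototransduction genes, 35 other genes of the pathway and all 13968 protein-coding genes; numbers over bars count genes. The 10 genes stand at 30% and 40% in the series' lists and 20% in each replicate, on 3, 4, 2 and 2 genes.

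The scaffold gene inaD (FBgn0001263; 2R, 22855688 to 22858794, minus strand) passed in the pooled list alone. This peak (2R, 22855680 to 22856019) had a signal value of 34.4 in replicate 1, 23.9 in replicate 2 and 62.9 in the series. Its summit lay in the last part of the coding sequence of inaD, and the nearest TSS was that of the ribosomal protein gene RpL23, 1467 bp away. The IDR was 0.00832 in the pooled ranking and 0.055 in the conservative ranking, and in the single replicates 0.122 and 0.493. The pooled list ranked it 1689th of 1895. At the promoter of inaD the strongest peaks of the replicates lay at different places, both short of the threshold. That of replicate 1 stood at 19.0, 227 bp before the TSS, where replicate 2 had a peak of 12.9. That of replicate 2 stood at 26.4, 250 bp after the TSS, where replicate 1 had no ranked peak.

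The remaining genes had ranked peaks but none past the threshold. Ranked lists also hold peaks short of the threshold. The conservative ranking held 128998 peaks with a median signal value of 19.3. Replicate 1 held 81037 with a median of 14.5 and replicate 2 held 115142 with a median of 12.4. The series' 2 rankings did not hold the same peaks. For example, a peak of rdgB at 44.8, 9534 bp from the gene start, was in the pooled ranking alone. A peak missing from one ranking can thus be present in another. All 10 genes had a peak in each ranked list, which credited 84.9% of all protein-coding genes in the conservative ranking, 93.0% in the pooled ranking, 90.6% in replicate 1 and 82.3% in replicate 2.

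**Figure D3:**
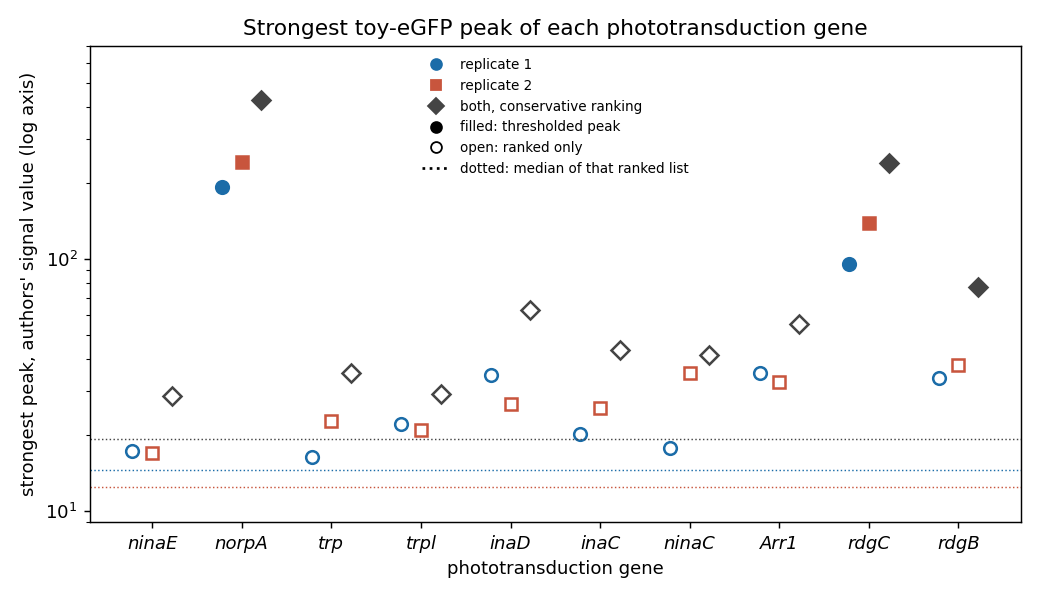
Signal value (log axis) of the strongest peak credited to each gene in replicate 1 (circles), replicate 2 (squares) and the conservative ranking (diamonds); filled symbols are thresholded peaks and dotted lines the median of each ranked list. norpA and rdgC stand above the others in both replicates, and rdgB is filled in the series alone.

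For ninaE (FBgn0002940; 3R, 19886255 to 19888206) the strongest peak was 17.2 in replicate 1 and 16.9 in replicate 2, at different places in the coding sequence. In the conservative ranking the strongest was 28.6, with 25.8% of that list as strong or stronger and an IDR of 0.512. The rhodopsin gene thus had the lowest maximum of the 10 in the conservative ranking. The nearest conservative summit was 17881 bp from its start.

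Both channel genes lacked a peak with an IDR near the limit. For trp (FBgn0003861; 3R, 29914521 to 29920289) the strongest peak stood at 16.4 in replicate 1, in the coding sequence, and at 22.7 in replicate 2, at the promoter. For trpl (FBgn0005614; 2R, 9753697 to 9765518) it was 22.2 in replicate 1, in intron 3, and 20.9 in replicate 2, before the gene. The conservative ranking gave 35.2 for trp and 29.2 for trpl, at an IDR of 0.5 and 0.732; the peak of trpl lay nearest to the TSS of another gene, CG1690, and no ranked peak of replicate 2 overlapped it.

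Among the genes of the signalling complex, the protein kinase C gene inaC (FBgn0004784; 2R, 16898535 to 16901575) had a maximum of 20.2 in replicate 1 and 25.6 in replicate 2. Both lay beyond the gene, more than 11 kb from its start, and 0 of the 14 peaks credited to it in the conservative ranking were inside the gene. The pooled ranking had 2 peaks inside inaC, replicate 2 had 3 and replicate 1 had 0. The gene ninaC (FBgn0002938; 2L, 7377702 to 7384344), which encodes a protein kinase joined to a myosin, had a maximum of 17.7 in replicate 1 and 35.3 in replicate 2. The latter peak lay upstream of the gene, and the site overlapped in replicate 1 by a peak of 9.48 had an IDR of 0.781 in the conservative ranking. Replicate 2 was thus well above replicate 1 at this site.

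The arrestin gene Arr1 (FBgn0000120; 2L, 18078269 to 18081307) was credited with 30 peaks in the conservative ranking, 0 of them inside the gene. Its strongest peak in that ranking was 55.0, with an IDR of 0.0716, and lay 28 kb upstream (2L, 18049965 to 18050304), where the TSS of Arr1 is still the nearest. Replicate 1 gave 23.8 there and replicate 2 gave 30.9. Inside the gene the pooled ranking had 3 peaks, replicate 2 had 5 and replicate 1 had 0.

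**Figure D4:**
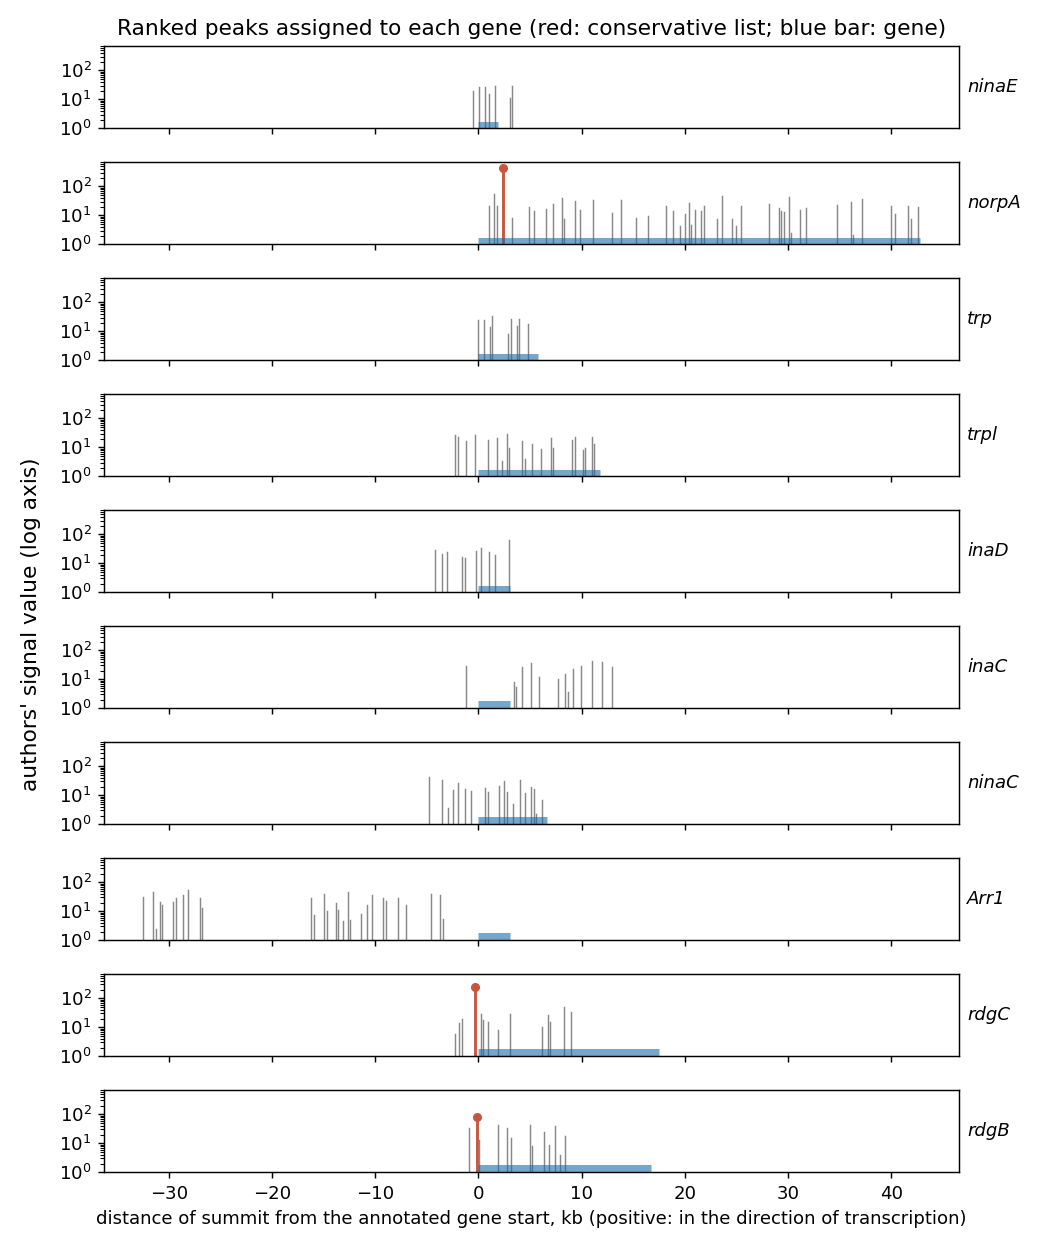
Peaks of the conservative ranking credited to each gene, by distance of the summit from the gene's annotated start in kb (horizontal) and signal value (vertical, log axis); red lines with dots are peaks of the conservative list and blue bars show the gene. The red peaks of norpA, rdgC and rdgB lie near the gene starts, and the peaks of Arr1 all lie upstream of the gene.

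The weaker peaks of the 10 genes had median signal values near those of the lists. The number of ranked peaks per gene and, pooled over the genes, their share near a TSS differed. In the conservative ranking, 182 of their 186 peaks overlapped no conservative peak, with a median signal value of 19.1 beside 19.5 for all peaks on the arms, and 50% of them were above that list median. In replicate 1 the median of 101 such peaks was 14.1 (14.5 for the list), and in replicate 2 that of 186 was 13.1 (12.4). Of the 103 ranked peaks of these genes in replicate 1, 78 (75.7%) overlapped a ranked peak of replicate 2, where 62.6% of the whole list did. Of the 188 in replicate 2, 74 (39.4%) overlapped one of replicate 1, where 43.9% did. A smaller share of the genes' ranked peaks had a summit within 500 bp of a TSS than in the list as a whole: 12.4% against 16.2% in the conservative ranking, 10.7% against 20.3% in replicate 1 and 12.8% against 15% in replicate 2. These shares pool peaks over genes and are weighted to norpA and Arr1, with 49 and 30 of the 186 in the conservative ranking. They are no measure of each gene, and counts by gene follow below. The median number of peaks per gene in the conservative ranking was 14 for the 10 genes and 5 for all protein-coding genes. norpA, the longest of the 10, had 49, and the 30 peaks of Arr1 and 14 of inaC all lay outside the gene. The part of gene length and of distance to other genes in this number was not tested. Peaks near each other share sequence and fragments, so no test was made.

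The replicates differed at the promoters of these genes. In replicate 2 all 10 genes had a ranked summit within 500 bp of one of their own TSSs (62.1% of all protein-coding genes), while replicate 1 had such a summit at norpA, inaD, rdgC and rdgB, 4 of the 10 (63.6% of all genes). The conservative ranking had one at 7 of the 10 (69.0%) and the conservative list at rdgC and rdgB (6.61%). Apart from rdgC and rdgB, the strongest promoter peak in replicate 2 ranged from 13.6 to 26.4. Replicate 2 also had more ranked peaks in all, 115142 against 81037, and the part of this in the gap was not tested.

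Of 35 further genes of the pathway, listed for opsins, the G protein, lipid cycle, channel partners, maturation and rhabdomere, 2 had a conservative peak by the rule. Ggamma30A, a G protein gamma subunit of the eye, had a peak in its 5′ UTR, 100 bp from a TSS, with a signal value of 38.8 in replicate 1, 38.7 in replicate 2 and 71.4 in the series (IDR 0.00486), which the pooled list held as well. This peak passed in neither replicate alone, at an IDR of 0.119 in replicate 1 and 0.0107 in replicate 2. Cds, the CDP-diglyceride synthetase of the lipid cycle, had a peak at its promoter (3L, 8127795 to 8128134) of 69.6 in replicate 1, 63.9 in replicate 2 and 135 in the series. It passed in both replicates and in the conservative list, with an IDR of 0.000546, but not in the pooled list, where the same interval and signal value had an IDR of 0.703. The summit of replicate 2 there was nearest to the TSS of the neighbour Uba2, 100 bp away, while the summits of replicate 1 and the series were nearest to Cds. A further gene, ninaG, an oxidoreductase gene of chromophore formation, had a summit 207 bp from its own TSS in the conservative and pooled lists, with a signal value of 155, above those of Ggamma30A and Cds. That site passed in both replicates as well, at 45.5 in replicate 1 and 101 in replicate 2. The rule does not credit it to ninaG, since the TSS of the neighbour Sptz is nearer. None of the opsins Rh2 to Rh7, nor the arrestin gene Arr2, had a thresholded peak. With the 10 genes included, 5 of 45 (11.1%) had a conservative peak by the rule, which leaves out ninaG, beside 8.93% of all genes.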

How the data were processed

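ChIP-seq peak lists of 2 replicates of toy-eGFP embryos were used: a thresholded and a ranked list for each replicate and 4 lists for the series, made from both. Per the deposited file descriptions, the lists are on dm6 and come from an IDR procedure. Column 7, used as the signal value of a peak, and column 12 of the ranked lists, used as −log10 of the global IDR (at most 5), were taken as deposited; for the aligner, peak caller and scaling: not given in the sources used here. Per the deposited lists, the peaks of the series' thresholded lists have an IDR of at most 0.01. Read depth is unknown. In the series' ranked lists 16 further columns could not be assigned to a sample and were not used.

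Genes came from Ensembl release 115 and sequence from RefSeq, both on the dm6 assembly. Coordinates are 1-based. Counts of genes were set beside the share of all protein-coding genes under the same rule; with 1 group and 2 replicates, no p-value was computed. Replicate values are those of the strongest ranked peak sharing any base. The 10 genes, the 35 other pathway genes (4 renamed to current symbols) and the 9 motifs were chosen with earlier results of these data known. Named genes were the 10, other pathway genes with a thresholded series peak, and neighbours of their peaks; the genes without such a peak were named after their values were seen. Alternatives covered assignment, threshold, list, overlap and promoter distance. The routines were tested on simulated data. Python 3.11.15 and pandas 2.3.3 were used.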

Additional observations from a re-analysis of the deposited data

How the results depend on the processing

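The count of 3 of 10 genes with a conservative peak ranged from 1 to 4 over the alternatives. It was 1 (norpA) where the summit had to lie inside the gene (4.8% of all genes), because the peaks of rdgC and rdgB lie before it. It was 3 with the nearest TSS alone (8.05%), with a limit of 5 kb (8.38%) or with any overlap with the gene (9.71%). It was 2 at an IDR of at most 0.001 (4.17%) and for peaks above the median signal (4.96%), 4 in the pooled list, and 2 without replicate 1 and 2 without replicate 2. Of the 3 peaks, 2 overlapped thresholded peaks of both replicates, also with 50% overlap or summits within 100 bp. Of the 3 peaks, 2 had a summit within 500 bp of a TSS, as had 54% of all conservative peaks on the arms. This position is thus common in the list. The 2 became 1 within 250 bp, since rdgC lies at 346 bp, and stayed 2 within 1000 bp. The share of all peaks at these other distances was not computed. All 10 genes had a ranked peak in every ranked list. Signal values were the same in the pooled list, which holds these peaks at the same coordinates, so this is no separate measurement. Signal values were lower in the single replicates (192 and 242 for norpA, 95.3 and 139 for rdgC, 33.6 and 38.0 for rdgB). Depth cannot be read from peak lists, so sites without a peak are not shown to be unbound.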

Other observations

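The opsin gene Rh5, named after its values were seen, had a ranked peak (2L, 12006579 to 12006918) 1.4 kb upstream of its TSS that is in none of the 4 thresholded lists. Its signal value was 54.8 in replicate 1, 71.4 in replicate 2 and 130 in the series. The IDR was 0.000736 in the conservative ranking and 0.000678 in the pooled ranking, below the limit of 0.01, and 0.00148 in replicate 2, also below it, but 0.0672 in replicate 1. Replicate 1 had its strongest ranked peak of Rh5 elsewhere (2L, 12012278 to 12012593), with a signal value of 64.2 and an IDR of 0.000725, and its thresholded list does not credit this peak to Rh5 either. In the conservative ranking 51 of the 1455 peaks with an IDR of at most 0.01 are not in the conservative list. Why they are not in it was not tested.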
